A study of Mus musculus with 21 samples.

Results

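The 7 genes described here, H2-Aa, H2-Ab1, H2-Eb1, Cd74, Ciita, H2-DMa and H2-DMb1, carry out the presentation of antigen on MHC class II molecules, and they are 7 of 18193 gene symbols read by the arrays. They were taken by name, with all of their 16 probe sets, and were chosen by name with knowledge of the differences between groups in these same arrays, so the levels in all 4 groups count as used in the choice. Their levels and differences are therefore a description, and the p-values beside them, taken from a fit over all genes, are not independent evidence of a direction. RNA was measured on 21 mouse heart arrays in 4 groups: G4D mice after transverse aortic constriction (G4D TAC, n = 6), G4D mice after a sham operation (n = 5), wild-type mice after TAC (n = 6) and sham-operated wild-type mice (n = 4). TAC narrows the aorta with a ligature and loads the left ventricle with pressure, and the sham operation leaves the aorta untouched. G4D is taken to be the gene-targeted line of the series design, in which less Gata4, a transcription factor of cardiac muscle, is made. The labels used here give no strain, age, sex or time after surgery, and nothing beyond the numbered titles says that samples of a group are separate animals, so p-values measure only the spread between these samples.

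MHC class II molecules are pairs of an alpha and a beta chain that carry peptides from endosomes to the surface of a cell and show them to CD4+ T cells. In the endoplasmic reticulum the pair is held by the invariant chain, which Cd74 encodes. In endosomes, cathepsins degrade that chain and the H2-DM dimer exchanges its last fragment for a peptide. Dendritic cells, macrophages and B cells carry most class II, and interferon-gamma induces it in other cells through Ciita, the co-activator that joins the RFX, CREB and NF-Y factors on class II promoters.

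Those promoters are known for an X box, which RFX binds, an X2 box, which CREB-family factors bind, and a Y box, which NF-Y binds. RefSeq promoter windows of 300 bases, from 250 before to 50 after the gene start in build GRCm38.p6, were at hand for 4 of the 7 genes, in 5 windows. The letters AACNGAT (X core), TGACG (X2 core) and GATTGG (Y core) were searched on both strands. The stretches below hold an X or X2 core and the Y core, both in capitals, with 15 bases on each side, and are shown because these are the genes described here whose windows hold both, with H2-DMb2, which shares the probe sets of H2-DMb1. They lie at chr17:34287852-34287912 on the minus strand for H2-Aa, chr17:34305763-34305827 on the plus strand for H2-Eb1, chr17:34153084-34153149 on the plus strand for H2-DMb1 and chr17:34145113-34145178 on the plus strand for H2-DMb2.
H2-Aa: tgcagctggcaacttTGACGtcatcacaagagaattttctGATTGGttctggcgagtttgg
H2-Eb1: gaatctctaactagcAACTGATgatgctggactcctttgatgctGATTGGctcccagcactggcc
H2-DMb1: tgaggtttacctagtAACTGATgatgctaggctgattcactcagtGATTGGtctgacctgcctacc
H2-DMb2: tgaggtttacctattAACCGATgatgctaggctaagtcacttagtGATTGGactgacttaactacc

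The gap from the X core to the Y core was 22 bases in H2-Eb1 and 23 in both H2-DMb1 and H2-DMb2. In H2-Aa the gap was 20 bases from the X2 core to the Y core, which is a different interval. In H2-Aa the X2 core began at -74 and the Y core at -49 relative to the gene start, and the X2 letters also matched the other strand at -71, overlapping the first match. In H2-Eb1 the X core began at -89 and the Y core at -60, with another Y match on the other strand at -35. In H2-DMb1 they began at -92 and -62. Of the 2 windows of H2-DMa, 1 held none of the 3 motifs and the other held a Y core at -199 alone. The shares were taken over 32851 promoter windows of the full 300 bases, with 1 chromosome left out. Of these, 1.1% held both an X and a Y core, 3.84% both an X2 and a Y core and 4.69% a Y core with either. A match describes letters in a window and is not a measured site.

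Of the probe sets for Gata4, both failed to pass the test between the genotypes. On the brighter one its level was 7.97 ± 0.18 in G4D TAC, 7.85 ± 0.09 in G4D sham, 7.80 ± 0.23 in wild-type TAC and 8.11 ± 0.15 in wild-type sham (SD). Whether they read the targeted stretch of Gata4 is not known, so they do not check the labels. Levels are log2 values of a probe set after quantile normalization between arrays, and a difference of 1 is a doubling. Deposited array medians ran from 4.31 to 5.33, and the number of arrays limits the precision. The source is labelled as cardiac myocyte: all 10 myocyte markers were above the filter on dim probe sets, with a mean level between 12.4 and 12.5 in each group. Markers of 5 other kinds of cell were above it too, 14 of 16 for macrophages, 8 of 8 for endothelium, 8 of 8 for fibroblasts, 7 of 12 for dendritic cells and 6 of 10 for B cells. Of all gene symbols, 13279 of 18193 were above the same filter, a larger share than for the dendritic cell and B cell markers. Passing the filter therefore does not by itself show that a kind of cell was present. Sample 5 of G4D sham carried high atrial markers, at a mean of 10.7 against 6.93 to 7.22 in the other 4 samples.

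Of the 16 probe sets, 14 carried the symbol of 1 member alone. They covered 6 genes, and 5 of these had a probe set above the filter, a mean level of 4.35, the 40th percentile: H2-Aa, H2-Ab1, H2-Eb1, Cd74 and H2-DMa. Each was represented by its brightest probe set. Ciita stayed below the filter on all 3 of its probe sets. H2-DMb1 shared both of its probe sets with its neighbour H2-DMb2, so no value belongs to H2-DMb1 alone.

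After TAC, the alpha chain H2-Aa, the beta chain H2-Ab1 and the invariant chain Cd74 were lower in G4D hearts than in wild-type hearts by 1.94-fold, 1.88-fold and 1.69-fold. All 5 tested genes had lower means in G4D TAC, and 3 of them passed the test (limma, Benjamini-Hochberg adjusted p under 0.05 over 13279 genes). Of all tested genes, 1.26% were called lower in this comparison and 3.36% in either direction. The median log2 fold change was -0.76 over the 5 genes and -0.01 over all tested genes. In bulk RNA, fewer cells of a type and less RNA per cell cannot be told apart. All 3 calls ended when the replicate number was a block, when only the TAC arrays were fitted and in the values without normalization. Leaving out wild-type TAC sample 2 left 1 call, H2-Aa, and leaving out G4D TAC sample 2 left 2, H2-Aa and H2-Ab1.

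H2-Aa encodes the alpha chain of the I-A molecule. Its level was 7.06 at the lowest, 8.28 at the median and 8.45 at the highest in G4D TAC, against 8.43, 8.96 and 9.45 in wild-type TAC. In G4D sham the 5 samples stood at 8.38, 8.35, 8.53, 8.73 and 8.42, against 9.15, 9.23, 8.5 and 8.88 in the 4 wild-type sham samples. After TAC, 5 of 6 G4D samples lay below every wild-type sample, and the groups met by 0.01. In sham, 3 of 5 G4D samples lay below every wild-type sample. G4D over wild type after TAC stood at -0.96 ± 0.22 (log2 fold change and SE, adjusted p = 0.0153).

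H2-Ab1 encodes the beta chain that pairs with H2-Aa. Its level was 6.33, 7.55 and 7.82 (lowest, median and highest) in G4D TAC, against 7.83, 8.26 and 8.79 in wild-type TAC. The G4D sham samples stood at 7.43, 7.69, 7.66, 8.0 and 7.60, and the wild-type sham samples at 8.47, 8.48, 7.73 and 7.84. H2-Ab1 was the 1 gene of the 5 whose TAC groups did not overlap, by a gap of 0.0069, and 0.836% of all tested genes were lower without overlap. In sham, 4 of 5 G4D samples lay below every wild-type sample. G4D over wild type after TAC stood at -0.91 ± 0.22 (log2 fold change and SE, adjusted p = 0.0223).

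Cd74 encodes the invariant chain, which fills the groove of a new class II pair and steers it to endosomes. Its level was 7.78, 8.84 and 9.06 (lowest, median and highest) in G4D TAC, against 8.95, 9.35 and 9.74 in wild-type TAC. The G4D sham samples stood at 8.73, 8.94, 8.82, 9.44 and 8.80, and the wild-type sham samples at 9.78, 9.49, 9.17 and 9.22. After TAC all 6 G4D samples lay below the wild-type median and 4 of 6 below every wild-type sample. In sham, G4D sample 4 stood among the wild-type samples and the other 4 below them. The log2 fold change after TAC was -0.76 ± 0.20 (SE, adjusted p = 0.0341). It was called in 14 of 21 fits that left out 1 array, and it was lost without any of wild-type TAC samples 2 to 6 and without G4D TAC sample 2 or 4.

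H2-Eb1 encodes the beta chain of the I-E molecule. Its level was 5.27, 6.39 and 6.71 (lowest, median and highest) in G4D TAC, against 6.56, 6.90 and 7.28 in wild-type TAC. The G4D sham samples stood at 6.19, 6.44, 5.46, 6.73 and 6.31, and the wild-type sham samples at 7.18, 7.16, 6.44 and 6.69. G4D over wild type stood at -0.63 ± 0.22 (SE, adjusted p = 0.155) after TAC and -0.64 ± 0.26 (SE, adjusted p = 0.506) in sham, and neither passed the test. As deposited these values were -0.48 and -0.85. After TAC, 5 of 6 G4D samples lay below every wild-type sample, and in sham 4 of 5 did.

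H2-DMa encodes the alpha chain of H2-DM, which edits the peptides of class II in endosomes. Its level was 5.0, 5.16 and 5.28 (lowest, median and highest) in G4D TAC, against 5.03, 5.40 and 5.60 in wild-type TAC. The G4D sham samples spread from 4.81 to 5.72 and the wild-type sham samples from 5.19 to 5.70. The groups overlapped in both comparisons, and G4D over wild type stood at -0.21 ± 0.14 (SE, adjusted p = 0.592) after TAC. Its 95% interval ran from -0.50 to 0.07.

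**Figure D1:**
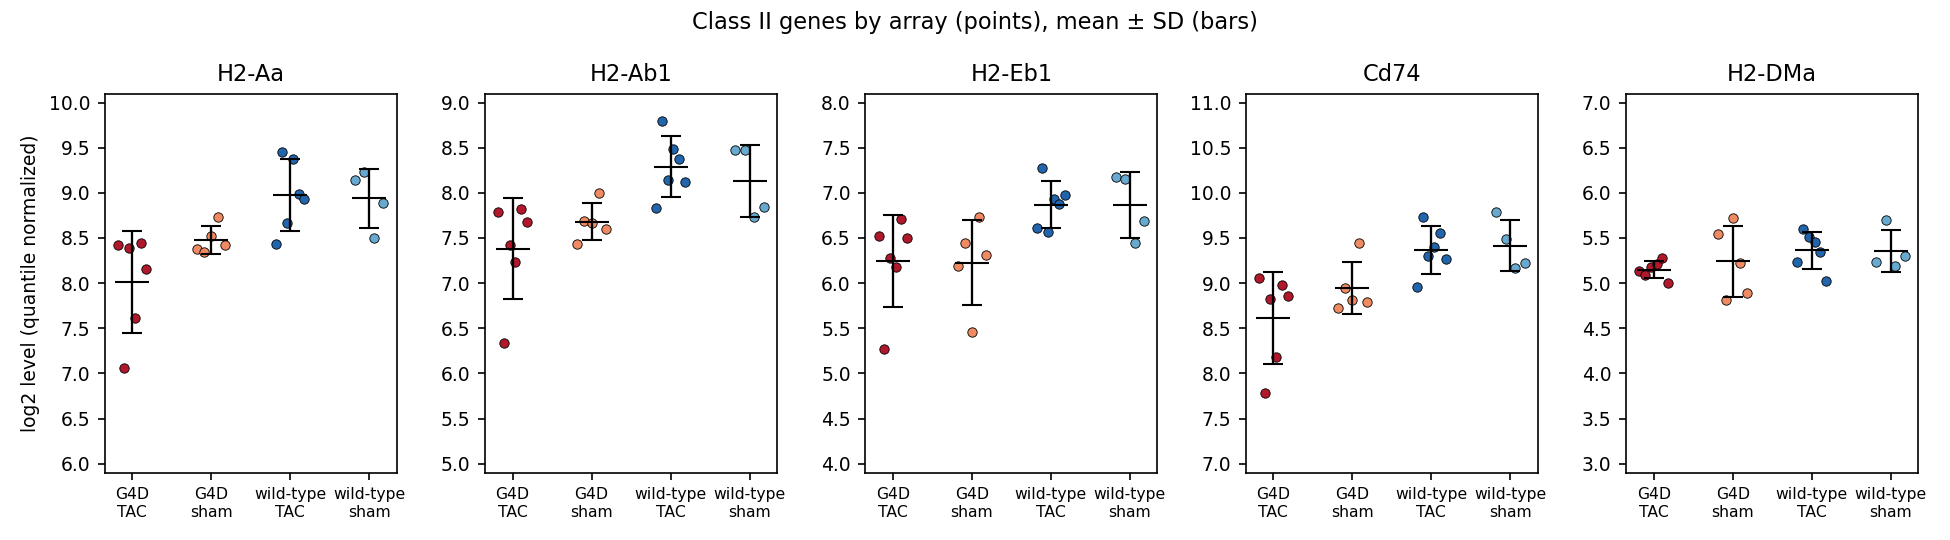
Log2 level (quantile normalized) of H2-Aa, H2-Ab1, H2-Eb1, Cd74 and H2-DMa, 1 point per array, in G4D TAC (n = 6), G4D sham (n = 5), wild-type TAC (n = 6) and wild-type sham (n = 4), with bars for the mean and SD. The axes span the same number of log2 units in each panel, and the G4D TAC array at 7.06 for H2-Aa is also the lowest for H2-Ab1, H2-Eb1 and Cd74.

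In sham-operated hearts the question was whether the genotypes differed without pressure overload. All 5 genes had lower means in G4D sham, with a median of -0.46 against -0.01 for all tested genes (as deposited, -0.80 against -0.28), and limma called 0 of the 5, against 0.0527% of all tested genes. H2-Eb1 was the 1 gene of the 5 lower at an unadjusted limma p under 0.05, as were 4.32% of all tested genes. The log2 fold changes were -0.46 ± 0.25 for H2-Aa, -0.45 ± 0.25 for H2-Ab1, -0.47 ± 0.23 for Cd74 and -0.12 ± 0.16 for H2-DMa (SE). Their adjusted p-values lay between 0.616 and 0.924. Without G4D sham sample 5, the array with high atrial markers, H2-Aa stood at -0.44, H2-Ab1 at -0.43, H2-Eb1 at -0.66, Cd74 at -0.44 and H2-DMa at -0.03.

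TAC was set against sham within each genotype to ask what pressure overload did. In G4D hearts, H2-Aa stood at -0.47 ± 0.23 (adjusted p = 0.153), Cd74 at -0.33 ± 0.21 (adjusted p = 0.268), H2-Ab1 at -0.30 ± 0.23 (adjusted p = 0.377), H2-DMa at -0.09 ± 0.14 (adjusted p = 0.703) and H2-Eb1 at 0.02 ± 0.23 (adjusted p = 0.972; log2 fold change and SE). The limma fit called 0 of the 5, against 22.5% of all tested genes in either direction. At an unadjusted p under 0.05, 0 of the 5 were lower, against 15.9% of all tested genes. Without G4D TAC sample 2 the values of H2-Aa, Cd74 and H2-Ab1 shrank to -0.27, -0.17 and -0.09. As deposited, with no normalization between arrays, Cd74, H2-Ab1 and H2-DMa stood above 0, at 0.10, 0.11 and 0.18. In wild-type hearts the 5 genes lay between -0.05 and 0.16. Limma called 0 of them, against 7.35% of all tested genes in either direction, and 0 were lower at an unadjusted p under 0.05, against 8.73%. The 95% interval of the wild-type change ran from -0.47 to 0.54 for H2-Aa and from -0.50 to 0.41 for Cd74, so a change of up to about those sizes cannot be told from none.

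Whether TAC acted on these genes differently in the genotypes is the interaction, which takes the wild-type TAC effect from the G4D one. It stood at -0.50 ± 0.33 for H2-Aa, -0.46 ± 0.33 for H2-Ab1, -0.28 ± 0.30 for Cd74, -0.10 ± 0.21 for H2-DMa and 0.01 ± 0.34 for H2-Eb1 (SE). The adjusted p-values lay between 0.734 and 0.995, and limma called 0 of the 5 genes, against 0.0151% of all tested genes in either direction. At an unadjusted p under 0.05, 0 of the 5 were below 0, against 3.80% of all tested genes. The direction depended on the normalization: as deposited the interaction stood at 0.02 for H2-Aa, 0.03 for H2-Ab1, 0.25 for Cd74, 0.23 for H2-DMa and 0.37 for H2-Eb1. The calls after TAC therefore do not show that the genotypes differed more after TAC than in sham.

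**Figure D2:**
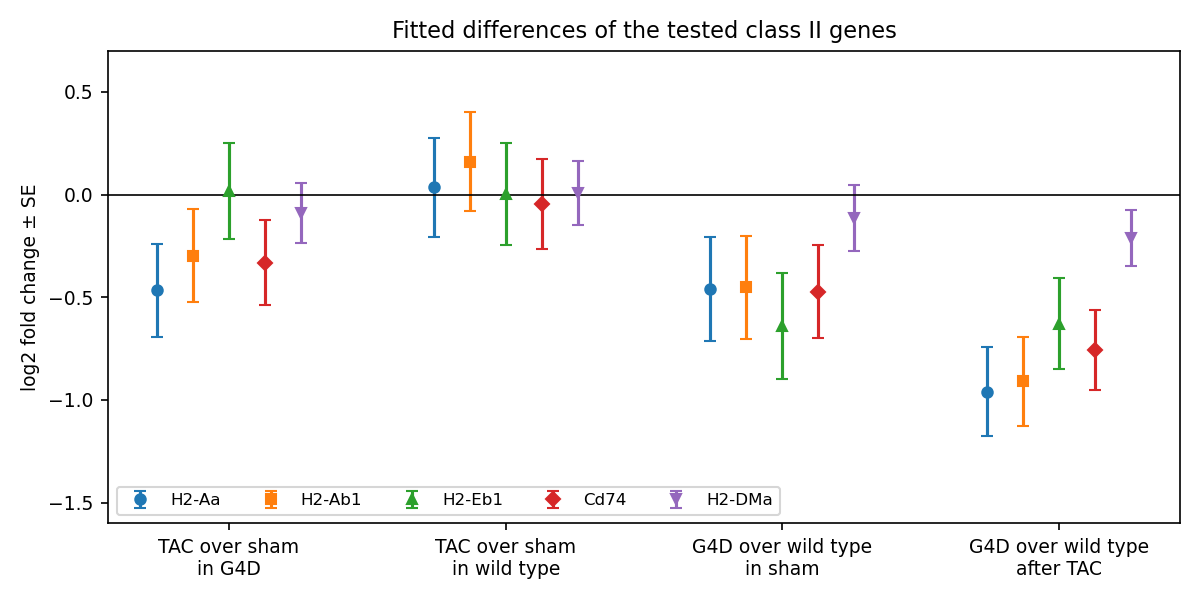
Log2 fold change with its SE for H2-Aa, H2-Ab1, H2-Eb1, Cd74 and H2-DMa in each of 4 comparisons from the limma fit. Both genotype comparisons lie below 0 for the 5 genes, and TAC over sham in wild type lies between -0.05 and 0.16.

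The other probe sets of the same genes were read in a fit of all 45037 probe sets with no filter. After TAC, 13 of the 14 probe sets that carry 1 member alone had lower means in G4D than in wild type, with a median of -0.77. Limma called 2 of them lower, against 0.255% of all probe sets, and this fit called neither Cd74 nor the brightest probe sets of H2-Aa and H2-Ab1. The 4 probe sets of H2-Aa gave -1.03 ± 0.24 (adjusted p = 0.046), -0.96 ± 0.23, -0.81 ± 0.21 and -0.53 ± 0.23, the last from the dimmest. The 3 probe sets of H2-Ab1 gave -1.01 ± 0.27, -0.91 ± 0.23 and -0.78 ± 0.19, with adjusted p-values between 0.0635 and 0.0932. The dimmer probe set of H2-DMa gave -0.37 ± 0.11 (adjusted p = 0.172). The call of the H2-Aa probe set held in 4 of the 21 fits that left out 1 array.

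Ciita is the co-activator on which class II transcription depends, and its 3 probe sets did not move together. On the dimmest, with a mean of 3.62, the levels were 2.39, 2.98, 3.76, 2.59, 2.01 and 2.98 in G4D TAC, against 3.74, 3.49, 4.08, 4.49, 4.25 and 3.87 in wild-type TAC. The G4D sham samples stood at 3.95, 3.90, 4.25, 3.71 and 4.09, and the wild-type sham samples at 3.8, 3.8, 3.43 and 4.43. G4D TAC was low on this probe set in 5 of 6 samples, and sample 3 lay within the range of the other groups. The log2 fold change was -1.20 ± 0.24 for G4D over wild type after TAC (adjusted p = 0.0175) and -1.19 ± 0.25 for TAC over sham in G4D (adjusted p = 0.00452), where 3.27% of all probe sets were called lower. The mean of this probe set over the arrays lies below the filter level of 4.35, in the range of dim probe sets. The other Ciita probe sets, with means of 3.75 and 4.0, gave -0.05 ± 0.19 and 0.03 ± 0.19 after TAC, and over the 21 arrays their levels correlated with that of the dimmest at r = 0.08 and r = 0.23. Which transcripts each of the 3 reads is not known from the files. Without normalization the first of these differences was -1.12 (adjusted p = 0.501), with median centring -1.24 (adjusted p = 0.0642), with the block -1.20 (adjusted p = 0.0667), in the TAC arrays alone -1.20 (adjusted p = 0.0909), and without G4D TAC sample 1 it was -1.13 (adjusted p = 0.0569).

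H2-DMb1 encodes a beta chain of H2-DM and was read through the shared probe sets alone. On the brighter one the G4D TAC samples ran from 3.87 to 5.12, against 4.09 to 5.17 in wild-type TAC. Its log2 fold change was -0.04 ± 0.23 (adjusted p = 0.996), and that of the dimmer one was -0.40 ± 0.25 (adjusted p = 0.778). Neither passed the test, and neither separates H2-DMb1 from H2-DMb2. H2-DMb2, which encodes another beta chain of H2-DM, also had a probe set of its own, and on it G4D over wild type after TAC was -0.03 ± 0.11 (adjusted p = 0.97).

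**Figure D3:**
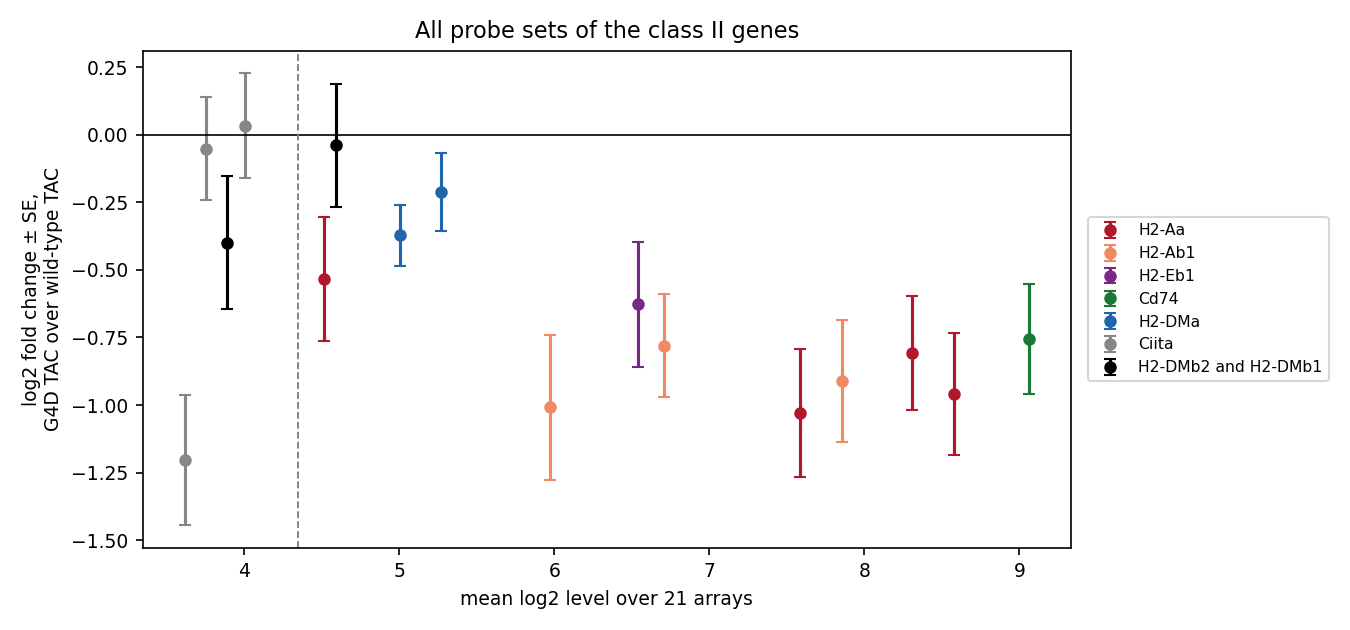
Log2 fold change of G4D TAC over wild-type TAC, with its SE, against mean log2 level over 21 arrays for the 16 probe sets of the class II genes. The dashed line marks the filter level of 4.35, and the Ciita probe set at -1.20 lies left of it with the other Ciita probe sets near 0.

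Across the 21 arrays H2-Aa, H2-Ab1, H2-Eb1 and Cd74 varied together, and H2-DMa, read on its brighter probe set, did not follow them closely. Pearson's r between pairs of the first 4 lay between 0.82 and 0.95, and between 0.76 and 0.93 once the mean of each group was taken out. Between H2-DMa and the other 4 it lay between 0.13 and 0.45, and between -0.14 and 0.28 without the group means. The brighter probe set of H2-DMa correlated with its dimmer one at r = 0.41, so these values describe that probe set and may not hold for the gene. G4D TAC sample 2 was the lowest of 21 arrays for H2-Aa, H2-Ab1, H2-Eb1 and Cd74 and ranked 5 of 21 for H2-DMa. Wild-type TAC sample 2 was the highest for H2-Aa, H2-Ab1 and H2-Eb1. These arrays share their normalization and groups, so the correlations are descriptions.

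The 6 genes outside the set whose level was most like the mean standardised level of the 5 genes were Igtp (r = 0.83), Irgm1 (r = 0.79), Irgm2 (r = 0.79), Parp14 (r = 0.75), Gbp3 (r = 0.75) and Ifi47 (r = 0.74), over 21 arrays. With the group means taken out, r was 0.63, 0.75, 0.63, 0.80, 0.76 and 0.73 in the same order. The arrays that chose these genes hold the group differences too, so a difference in the same direction is built into the choice, and their values are a description. After TAC, G4D over wild type stood at -0.76 ± 0.19 for Igtp, -0.67 ± 0.21 for Irgm2, -0.50 ± 0.17 for Irgm1, -0.40 ± 0.27 for Gbp3, -0.34 ± 0.12 for Parp14 and -0.26 ± 0.18 for Ifi47 (log2 fold change and SE). In sham it stood at -0.76 ± 0.25 for Irgm2, -0.53 ± 0.22 for Igtp and -0.38 ± 0.21 for Ifi47. The other values in sham were -0.36 ± 0.32 for Gbp3, -0.14 ± 0.20 for Irgm1 and -0.10 ± 0.14 for Parp14.

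The other chains of the class II region did not pass the test. Of the 5, 4 were tested and 0 were called by limma in any of the 5 comparisons, with 1, H2-Ea, lower in G4D after TAC at an unadjusted p under 0.05, as were 6.29% of all tested genes. After TAC, G4D over wild type was -0.43 ± 0.17 for H2-Ea, the alpha chain of I-E (adjusted p = 0.24), and -0.09 ± 0.23 for H2-Eb2, a beta chain related to H2-Eb1 (adjusted p = 0.954). In sham the same differences were 0.28 ± 0.20 and 0.18 ± 0.27.

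Of 19 regulators of class II, 17 were tested, and 1 was called lower in G4D after TAC, against 1.26% of all tested genes. That gene was Nfyc, which encodes a subunit of NF-Y, at -0.26 ± 0.07 (limma, adjusted p = 0.0318). Its partners in NF-Y stood at -0.11 ± 0.10 (Nfya) and 0.24 ± 0.10 (Nfyb), and the RFX subunits at -0.04 ± 0.13 (Rfx5), -0.07 ± 0.11 (Rfxap) and -0.24 ± 0.15 (Rfxank), none past the test. With TAC in G4D hearts, 2 of the 17 were called higher, against 13.2% of all tested genes, and 3 lower, against 9.32%. The 5 calls together stand near the 22.5% of all tested genes called in either direction, so the count sets the list apart from no other genes. Irf8, a factor of myeloid cells, rose by 0.95 ± 0.26 (adjusted p = 0.0112), and Ifngr1, a chain of the interferon-gamma receptor, rose by 0.33 ± 0.08 (adjusted p = 0.00361). On the lower side, Nfyc stood at -0.37 ± 0.07 (adjusted p = 0.000741), Spi1, which encodes the myeloid factor PU.1, at -0.32 ± 0.11 (adjusted p = 0.0459) and the kinase gene Jak1 at -0.30 ± 0.08 (adjusted p = 0.0115). In the values without normalization, where the median of all genes shifted to 0.31, Nfyc and Spi1 stood at 0.07 and 0.11. In wild-type hearts TAC raised Rfx5 by 0.54 ± 0.14 (adjusted p = 0.0205), the 1 call among the 17, where 7.35% of all tested genes were called. Irf8 and Ifngr1 stood there at 0.76 ± 0.28 (limma, adjusted p = 0.109) and 0.26 ± 0.08 (adjusted p = 0.0561). Nfyc, Spi1 and Jak1 stood there at -0.23 ± 0.07, -0.10 ± 0.12 and -0.14 ± 0.09. Limma called 0 of the 17 in the interaction. With median centring, Nfyc and Spi1 with TAC in G4D hearts stood at -0.14 and -0.10, and neither was called. The call of Nfyc after TAC ended as deposited (-0.09, adjusted p = 0.94), with median centring (-0.21, adjusted p = 0.886), with the block (adjusted p = 0.0823) and in the TAC arrays alone (adjusted p = 0.0816). Spi1 was lost in 5 of 9 other settings and Irf8 in 1, with only the groups compared (adjusted p = 0.0535). Rfx5 in wild-type hearts was lost as deposited (adjusted p = 0.656) and with median centring (adjusted p = 0.0501). Over the 21 fits that left out 1 array, Nfyc after TAC was called in 13, Spi1 in 7 and Rfx5 in 18.

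A further list held 8 endosomal enzymes that process antigen or invariant chain. With TAC, 4 were called higher in each genotype, against 13.2% of all tested genes in G4D and 5.19% in wild-type hearts. In G4D hearts these were the cathepsin genes Ctsz (1.05 ± 0.11), Ctss (0.91 ± 0.24) and Ctsb (0.24 ± 0.08), and Lgmn, which encodes legumain (0.42 ± 0.09). In wild-type hearts they were Ctss (1.02 ± 0.25), Ctsz (0.89 ± 0.12), Ifi30, which encodes a thiol reductase (0.64 ± 0.15), and Lgmn (0.45 ± 0.10). As deposited, 4 of 8 were called in G4D hearts, with Ctsb not among them (adjusted p = 0.0512), and 0 of 8 in wild-type hearts. With median centring the counts were 3 and 2, and Ctsb in G4D hearts and Ifi30 and Lgmn in wild-type hearts were lost. With the block, Ctsb in G4D hearts (adjusted p = 0.0664) and Ctss in wild-type hearts (adjusted p = 0.0787) were lost. The call of Ctsb in G4D hearts was also lost with only the groups compared (adjusted p = 0.0794) and held in 16 of the 21 fits without 1 array. After TAC, 0 of 8 were called between the genotypes, where Ctsb stood at 0.26 ± 0.07 (limma, adjusted p = 0.053) and Ctss at -0.28 ± 0.23 (adjusted p = 0.714). At an unadjusted p under 0.05, 3 of the 8 were higher, against 7.15% of all tested genes, and 1 lower, against 6.29%.

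Class I presentation, which loads peptides from the cytosol, was called by limma in 0 of 12 tested genes between the genotypes after TAC, and in 0 at an unadjusted p under 0.05, with a median of -0.14 and H2-D1 at -0.26 ± 0.16 and Psmb8, a subunit of the immunoproteasome, at -0.22 ± 0.16. With TAC, Pdia3, a chaperone of peptide loading, rose by 0.39 ± 0.09 in G4D hearts and by 0.35 ± 0.09 in wild-type hearts. Psmb10, another immunoproteasome subunit, rose by 0.31 ± 0.09 in G4D hearts. These were the calls among the 12, 2 in G4D hearts and 1 in wild-type hearts. Of all tested genes, 13.2% and 5.19% were called higher there, so counts this small do not set the list apart. Taken as the mean of all its probe sets, Pdia3 stood at 0.13 in both genotypes and was not called (adjusted p = 0.442 in G4D hearts and 0.615 in wild-type hearts). Its call in wild-type hearts was also lost as deposited, with median centring, with the block and with only the groups compared, and it held in 16 of the 21 fits that left out 1 array. Of 6 co-stimulatory or co-inhibitory genes, 0 were called between the genotypes after TAC, and 0 at an unadjusted p under 0.05. Among them Cd274, a ligand of the inhibitory receptor PD-1, stood at -0.37 ± 0.21 (limma, adjusted p = 0.504). In sham Cd274 stood at -0.85 ± 0.25 for G4D over wild type (limma, adjusted p = 0.281), which was not called either. The 1 call among the 6 genes was Icosl, lower with TAC in G4D hearts at -0.41 ± 0.11 (adjusted p = 0.00847). In that comparison 9.32% of all tested genes were called lower. The call of Icosl was lost as deposited (-0.07, adjusted p = 0.835), with median centring (-0.27, adjusted p = 0.127) and with the mean of all probe sets (-0.22, adjusted p = 0.0868). Of 10 T cell genes, 2 were above the filter, Cd4 and Cd8a. After TAC, G4D over wild type was -0.01 ± 0.23 for Cd4 and -0.15 ± 0.12 for Cd8a. Cd8a was called lower with TAC in G4D hearts at -0.47 ± 0.13 (adjusted p = 0.0116), where 9.32% of all tested genes were called lower. That call was lost as deposited (-0.14, adjusted p = 0.673), with median centring (-0.34, adjusted p = 0.0642) and with the mean of all probe sets (-0.11, adjusted p = 0.476).

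Markers of the cells that carry class II were read beside the class II genes. Macrophage markers rose with TAC in both genotypes: 11 of 14 were called higher in G4D hearts, with a median of 0.58 and against 13.2% of all tested genes, and 9 of 14 in wild-type hearts, with a median of 0.66 and against 5.19%. In the same comparisons 0 of 5 class II genes were called. In the values without normalization 11 of 14 were called in G4D and 0 in wild type, where the median was 0.60, and with median centring 11 and 6. Without G4D sham sample 5, 8 of 14 were called in G4D. Dendritic cell markers did not move one way with TAC. In G4D hearts Irf8, also on the list of regulators, was called higher and Siglech (-0.57 ± 0.09, adjusted p = 0.00016) and Itgax (-0.35 ± 0.12, adjusted p = 0.0341) lower, of 7 tested. Of all tested genes, 13.2% were called higher there and 9.32% lower. In wild-type hearts Siglech was called lower (-0.36 ± 0.10, adjusted p = 0.0278), where 2.16% of all tested genes were called lower. As deposited 0 dendritic cell markers were called lower in either genotype, and with median centring 1 in G4D hearts and 0 in wild-type hearts. Of 6 tested B cell markers limma called 0 with TAC in either genotype. At an unadjusted p under 0.05, 0 were higher or lower in G4D hearts and 1 was lower in wild-type hearts. Of all tested genes, 15.9% were lower at that threshold in G4D hearts and 8.73% in wild-type hearts. The mean level of the 14 markers ran from 7.42 to 7.90 in G4D TAC, from 6.91 to 7.30 in G4D sham, from 7.43 to 8.17 in wild-type TAC and from 7.16 to 7.25 in wild-type sham. The mean of H2-Aa, H2-Ab1, H2-Eb1 and Cd74 ran from 6.61 to 7.99 in G4D TAC, from 7.62 to 8.23 in G4D sham, from 7.96 to 8.81 in wild-type TAC and from 7.96 to 8.65 in wild-type sham.

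Between the genotypes after TAC, limma called 0 of 14 macrophage markers, against 3.36% of all tested genes in either direction. At an unadjusted p under 0.05, 1 of the 14 was lower, against 6.29% of all tested genes. The median of the 14 was -0.16, and it was 0.02 without normalization, where the median of all genes shifted to 0.14. With array weights 1 marker was called lower. Itgam and Timd4 were below the filter. Of 12 dendritic cell markers, 7 were tested and 0 were called after TAC. Against 6.29% of all tested genes, 2 of the 7 were lower at an unadjusted p under 0.05, and the median of the 7 was -0.13. Their mean level ran from 4.95 to 5.28 in G4D TAC, from 4.85 to 5.26 in G4D sham, from 5.23 to 5.37 in wild-type TAC and from 5.23 to 5.33 in wild-type sham, and Xcr1, Cd209a, Ccr7 and Cd207 were below the filter. Of 10 B cell markers, 6 were tested and 0 were called after TAC, with a median of -0.05 and 0 at an unadjusted p under 0.05. Their mean level ran from 5.23 to 5.50 in G4D TAC, from 5.28 to 5.70 in G4D sham, from 5.19 to 5.71 in wild-type TAC and from 5.44 to 5.68 in wild-type sham, and Cd79b, Ms4a1 and Fcer2a were below the filter. The part of these cells in the class II differences was not tested. The difference between the 3' and 5' probe sets of actin, a sign of RNA quality, was 0.25 ± 0.08 in G4D TAC, 0.46 ± 0.10 in G4D sham, 0.32 ± 0.11 in wild-type TAC and 0.52 ± 0.10 in wild-type sham (SD), and its part was not tested.

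**Figure D4:**
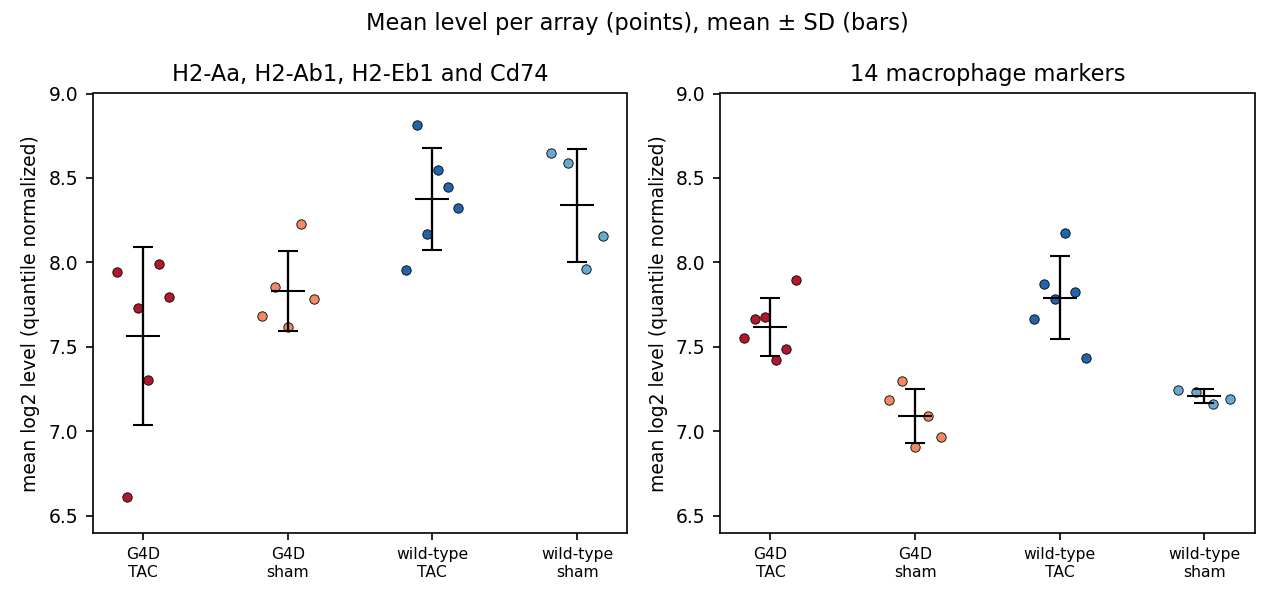
Mean log2 level per array (points) of H2-Aa, H2-Ab1, H2-Eb1 and Cd74 on the left and of the 14 tested macrophage markers on the right, with the mean and SD of each group. Levels of different probe sets are not comparable between the panels. Within them, macrophage markers are higher in TAC than in sham in both genotypes. The class II mean lies at 7.99 or below in G4D TAC and overlaps with each other group. The lowest arrays of G4D sham, wild-type TAC and wild-type sham lie at 7.62, 7.96 and 7.96.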

How the data were processed

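Expression arrays of 21 mouse heart samples were grouped by genotype and operation from their titles. The authors deposited log2 values per probe set, made with PLIER per the submitters' processing notes; its version and any background correction or normalization are not given in the sources used here. The log2 scale was read from the values, which ran from -13.5 to 15.1. From there, 64 controls were left out and the other 45037 probe sets were quantile normalized between arrays. Of these, 34945 carried 1 symbol of the platform annotation, 932 several and 9160 none. A gene was its brightest probe set with 1 symbol and a mean at or above the 40th percentile (4.35), which left 13279 of 18193 symbols. A single limma fit (3.58.1, R 4.3.3) took the 4 group means, with 17 residual degrees of freedom and no covariate. Tests were two-sided, with Benjamini-Hochberg adjustment over all tested genes of a comparison and calls under 0.05. All probe sets were also fitted without the filter. No batch or date is given in the labels.

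The members and all gene lists were chosen with earlier results of these data known. Besides the members, up to 4 called genes of each list were named by the size of their change, or 1 or 2 as values where none was called, cell type markers by count and range, and the 6 genes most like the members. Nfya, Nfyb, Rfx5, Rfxap and Rfxank after TAC were named as partners of Nfyc and Ciita, and Siglech and Itgax as called markers, after their values were seen. Promoter sequences are RefSeq's, in GRCm38.p6. The fit was tested on simulated data. Alternatives were the values as deposited, median centring, no filter, the 60th percentile as filter, the mean of all probe sets, a floor at the 10th percentile, only the groups compared, array weights, the replicate number as a block, and leaving out each array.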

Additional observations from a re-analysis of the deposited data

Results flagged for a closer look

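G4D TAC sample 2 stood far from the other 5 samples of its group on 2 probe sets of the class II genes. On the second-brightest probe set of H2-Aa its level was 6.83, with the nearest other sample at 7.90. On H2-Eb1 it was 5.27, with the nearest other sample at 6.18. In all, 64 groups of arrays on 16 probe sets were examined and 2 held such a sample, while chance flags about 1 in 20. Without this array G4D over wild type after TAC stood, as a log2 fold change, at -0.77 for H2-Aa (limma, adjusted p = 0.0292), -0.70 for H2-Ab1 (adjusted p = 0.0342), -0.59 for Cd74 (adjusted p = 0.0727) and -0.43 for H2-Eb1 (adjusted p = 0.335).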

How the results depend on the processing

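The direction of G4D over wild type, below 0 for all 5 tested class II genes after TAC, held under all other settings that gave a value (9, or 8 for H2-DMa, which the 60th-percentile filter removed) and all 21 fits without 1 array. The number of class II genes called lower after TAC was 3, and it was 0 in the values as deposited, 0 with the replicate block and 0 with only the groups compared. Without 1 array it ran from 1 to 3. H2-Aa was called in 6 of the 9 other settings and 21 of 21 fits without 1 array, H2-Ab1 in 6 and 20, and Cd74 in 4 and 14. With the replicate block the adjusted p was 0.0535 for H2-Aa, 0.0654 for H2-Ab1 and 0.093 for Cd74, and with only the groups compared 0.0541, 0.0547 and 0.0778. Cd74 also missed the threshold without the filter (adjusted p = 0.062) and with median centring (adjusted p = 0.136). Deviations from the group means were correlated between samples of different groups. Of 28 pairs with the same number, 9 had a correlation over 0.1, with a median of -0.07. Of 136 pairs with different numbers, 52 did, with a median of -0.01. These values show no pairing by number, and they cannot exclude one, since the pairs share samples. In the fit of all probe sets, the 2 called after TAC became 0 as deposited, 0 with median centring, 0 with the block, 0 with only the groups compared and 1 with array weights, and ran from 1 to 4 without 1 array. The 1 called with TAC in G4D became 0 as deposited.

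The values as deposited moved the median of all genes by up to 0.42 (the interaction) and with it the median of the 5 class II genes, to 0.11 for TAC in G4D, -0.80 for G4D over wild type in sham and 0.23 for the interaction. Signs turned as follows. As deposited, TAC in G4D gave 0.11 for H2-Ab1, 0.10 for Cd74, 0.18 for H2-DMa, 0.0691 for Nfyc and 0.11 for Spi1. TAC in wild type gave -0.0551 for H2-Aa, -0.0545 for H2-Eb1 and -0.0482 for H2-DMa, and the interaction gave 0.0173 for H2-Aa, 0.0266 for H2-Ab1, 0.25 for Cd74 and 0.23 for H2-DMa. With array weights, TAC in G4D gave -0.12 for H2-Eb1 and 0.0049 for H2-DMa, TAC in wild type -0.0075 for H2-Aa and -0.0101 for H2-Eb1, and the interaction -0.11 for H2-Eb1. With the replicate block, TAC in G4D gave -0.0204 for H2-Eb1, and TAC in wild type -0.0084 for H2-Aa and -0.0849 for H2-Eb1. The mean of all probe sets gave 0.0358 for H2-DMa with TAC in G4D. Without 1 array, TAC in G4D ran from -0.18 to 0.21 for H2-Eb1 and from -0.20 to 0.0304 for H2-DMa. TAC in wild type ran from -0.11 to 0.14 for H2-Aa, from -0.14 to 0.11 for H2-Eb1, from -0.13 to 0.0752 for Cd74 and from -0.0481 to 0.12 for H2-DMa, and the interaction from -0.18 to 0.21 for H2-Eb1 and from -0.21 to 0.0236 for H2-DMa. The cause of these turns was not tested. Dim probe sets, Ciita's among them, limit what these arrays can show.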
